A study of Ovis aries with 24 samples.

Results

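The genes described here are those of the abomasum whose level at least doubled between d5 and d10 in every library. They were chosen on CPM, the count of a gene per 1000000 counts of its library. A gene was taken when its lowest CPM over the 3 abomasum libraries of d10 was at least 5 and was at least 2 times its highest CPM over the 3 abomasum libraries of d5. This held for 51 of the 27054 genes listed, and for 0.576% of the 8850 genes that reached 5 CPM in each d10 abomasum library. The age contrast of the abomasum is thus what chose the genes, so it is given as a description, and counts of calls in it are printed without reading anything from them. The results rest on tests in the rumen, reticulum and omasum, whose libraries played no part in the choice. Their lambs may have, since the chambers may come from the same lambs. In that case these tests are not independent of the choice.

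RNA sequencing counts were available for the epithelium of the rumen, reticulum, omasum and abomasum of lambs (*Ovis aries*) at d5 and d10, with 3 libraries in each of the 8 groups and 24 in all. No genotype or treatment separates the groups, which differ in chamber and age. The study describes its rumen donors, d5 lambs among them, as healthy male Hu lambs kept with their mothers on ewe's milk, with starter feed from d10. Whether the d10 lambs of this series had eaten pellets, and whether the 4 chambers of one number came from one lamb, is not given in the sources used here. Where libraries of a group do not come from separate lambs, the p-values measure only the spread between these libraries.

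The abomasum is the glandular last chamber of the ruminant stomach. It secretes acid, pepsinogen and, in suckling animals, the milk-clotting enzyme chymosin, and it receives milk directly because the reticular groove carries milk past the forestomach. The rumen, reticulum and omasum are lined by a stratified squamous epithelium and house fermentation once solid feed is eaten. In the same days after birth the gut lining is colonised by microbes and gains immune cells. The libraries were of epithelial tissue and not of single cell types. A change in the number of cells of a type cannot be told apart from a change in RNA per cell in any value below.

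The table names genes by Ensembl sheep identifier only, and 0 of these identifiers matched the sheep RefSeq gene table, so that the function of the 51 genes is not known here. They are called members 1 to 51, in falling order of the ratio of the lowest d10 to the highest d5 CPM in the abomasum. Members 1 and 2 are ENSOARG00000010283 and ENSOARG00000016787.

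Total counts ran from 13041697 to 19650121 per library. As an index of abomasal transcripts, 27 genes were used whose level was 100 CPM or more across the abomasum libraries and, in each rumen library, no more than 1% of the lowest abomasum value. Their median level was 6.56% of the d5 abomasum level in omasum d5 library 1 and 74.4% in omasum d5 library 2, against 0.0928% or less in the other reticulum and omasum libraries. In the rumen their low level is by construction. Results in the omasum are therefore given with and without these libraries. In the opposite direction, 39 genes were used with 100 CPM or more in each rumen and reticulum library and an abomasum mean of at most 1% of their rumen mean. None of the 51 members is in either index.

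In the abomasum the 51 members together took 1199, 1627 and 1505 CPM in the 3 libraries of d5 and 9385, 10921 and 11709 CPM in those of d10. By the mean of 3 libraries, a member was higher at d10 by 2.72 to 24.7 times, with a median of 7.23. The ratio of the lowest d10 to the highest d5 library, which the rule used, ran from 2.02 to 9.45 with a median of 3.08, and it was at least 3 for 28 members and at least 5 for 8. Most members were genes of moderate level. Mean CPM at d10 ran from 5.91 to 2413 with a median of 63.8, and 20 members had a mean of at least 100 CPM. The rule in the opposite direction found 1 gene in the abomasum (0.0123% of the 8154 genes at 5 CPM or more in each d5 library).

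Member 1 had the largest ratio, with 49.2, 55.1 and 19.4 CPM at d5 and 522, 521 and 530 CPM at d10. Its d10 libraries were nearly equal and all far above those of d5. Member 2 was a gene of low level, at 0.782, 1.20 and 0.996 CPM at d5 and 15.5, 10.9 and 21.0 CPM at d10. Member 3 had 7.33, 2.93 and 7.61 CPM at d5 and 111, 56.2 and 274 CPM at d10. Its d10 mean was 24.7 times its d5 mean, the most of any member, although its d10 libraries were far apart. Member 15 was the most abundant, with 200, 482 and 452 CPM at d5 and 2142, 2818 and 2279 CPM at d10. Member 11 had 185, 140 and 174 CPM at d5 and 883, 1710 and 3015 CPM at d10. Its d5 libraries were close together. In CPM, its d10 libraries differed by more than the step from d5 to the lowest of them. By ratio, the lowest d10 library was 4.78 times the highest d5 library.

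**Figure D1:**
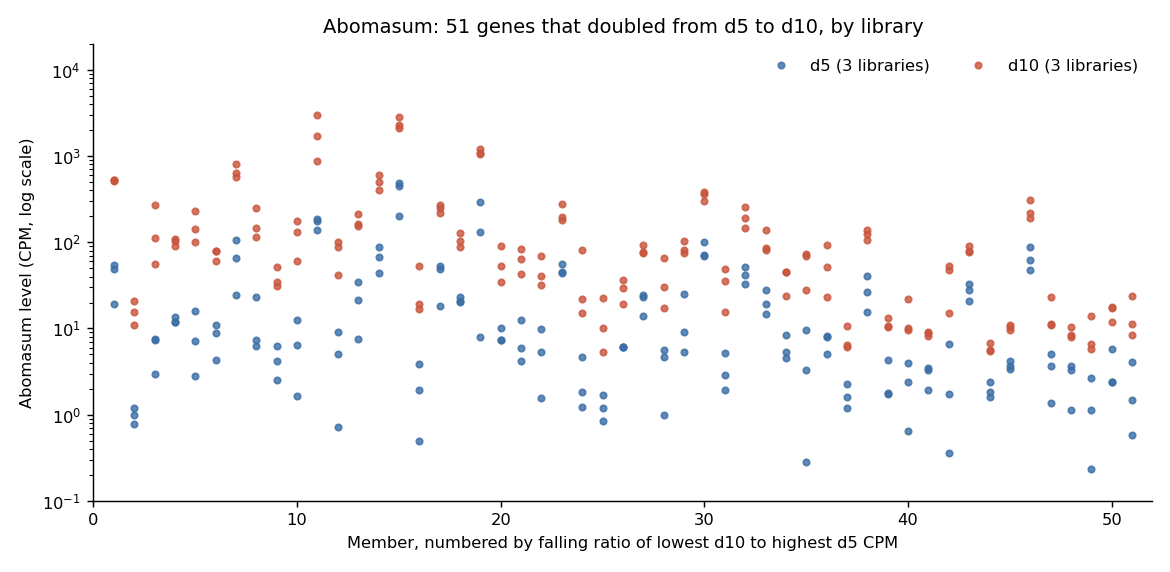
CPM in the abomasum (vertical axis, log scale) of the 51 members (horizontal axis, numbered by falling ratio) in the 3 libraries of d5 (blue) and the 3 of d10 (red), each point 1 library. Member 1 lies at 19.4 to 55.1 CPM at d5 and 521 to 530 CPM at d10, and the points of member 51 are closest to meeting, at up to 4.13 CPM at d5 and from 8.33 CPM at d10, as the rule fixes.

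At the threshold, members 51 and 50 lay just inside, with ratios of 2.02 and 2.10. Member 51 had 1.49, 4.13 and 0.586 CPM at d5 and 23.9, 11.2 and 8.33 CPM at d10. The nearest genes outside had ratios of 1.99 and 1.98. The first of them had 0.782, 3.46 and 1.05 CPM at d5 and 6.90, 7.96 and 7.25 CPM at d10, so that genes on either side of the threshold looked alike.

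Counts behind the members were high enough to be read at both ages. The lowest count of a member was 81 in a d10 abomasum library and 4 in a d5 abomasum library, none was at 0 in a d5 abomasum library, and 20 had fewer than 30 counts in at least 1 of these. Libraries of the same age differed more at d5. The highest d5 library was above the lowest by a median of 2.57 times over the members, against 1.85 times over the 8850 genes. At d10 these values were 1.73 and 1.59 times. Member 19 was the most extreme at d5, with 7.89, 130 and 296 CPM, and then lay at 1214, 1099 and 1053 CPM at d10.

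A few genes dominated the abomasum, and their share bears on every CPM. The 10 most abundant genes took 41.5%, 22.1% and 49.2% of the counts in the d5 libraries and 34.6%, 32.3% and 30.2% in the d10 libraries. Library 2 of d5, with the lowest share, was the highest of the 3 d5 libraries for 32 of 51 members, and also for 75.1% of all genes with a mean of at least 1 CPM. With library sizes corrected by edgeR's TMM factors, which allow for such dominant genes, 52 genes met the rule, 43 of them members, and 3 met it in the opposite direction. The number also rests on single libraries, since each library left out relaxes the rule. It was 152 without d5 library 2, and 93, 86 and 98 without d10 library 1, 2 or 3.

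In edgeR's quasi-likelihood test of age over the 13780 genes that could be tested in the abomasum, 0 genes passed an adjusted p of 0.05 (0.0%), and so 0 members. At an unadjusted p under 0.05 there were 805 genes (5.84%), among them all 51 members. By DESeq2, 107 genes (0.776%) were higher at d10 at an adjusted p under 0.05, 47 of them members. In an edgeR fit of all 24 libraries 83 genes (0.513%) were, 37 of them members, and by limma-voom 0 genes differed. As the members were chosen on this contrast, these numbers describe the choice and support nothing.

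By level at d10 the members fell into those held mainly in the abomasum and those that the forestomach also expressed. The rule required a high abomasum level at d10, so that this split leans to the abomasum by construction. At d10, 29 members had an abomasum mean at least 4 times the highest mean of the 3 forestomach chambers, 15 were between 1 and 4 times, and 7 were higher in a forestomach chamber. At d5, the abomasum means of the 29 had a median of 12.4 CPM. Their highest forestomach means at d5 had a median of 6.73 CPM, and not all of the 29 were then higher in the abomasum. CPM of one gene was compared between chambers here, and never between genes. Member 7 was the furthest to the abomasal side, at 55.1 times. It had 633, 574 and 804 CPM in the d10 abomasum, against 12.7, 16.4 and 3.01 CPM in the d10 rumen and 2.87, 7.16 and 1.91 CPM in the d10 omasum. Members 11 and 20 followed, at 43.9 and 41.3 times.

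Among the 7 members higher in the forestomach, member 17 was the most abundant. It had 472, 536 and 526 CPM in the rumen at d5 and 455, 569 and 518 CPM at d10, so that its rumen level overlapped between the ages. In the abomasum it had 53.3, 49.2 and 18.0 CPM at d5 and 216, 250 and 272 CPM at d10. Member 26 behaved likewise, with 6.12, 6.12 and 6.15 CPM in the abomasum at d5 and 19.0, 29.8 and 36.8 CPM at d10, and 70.1 to 115 CPM in the rumen over both ages. The 39 forestomach genes had medians of 0.0519%, 0.0733% and 0.0652% of their rumen level in the abomasum at d5 and of 0.0878%, 0.0551% and 0.0482% at d10. They were chosen for a low abomasum mean, so that only their order between the ages can be read, and the ages overlapped.

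**Figure D2:**
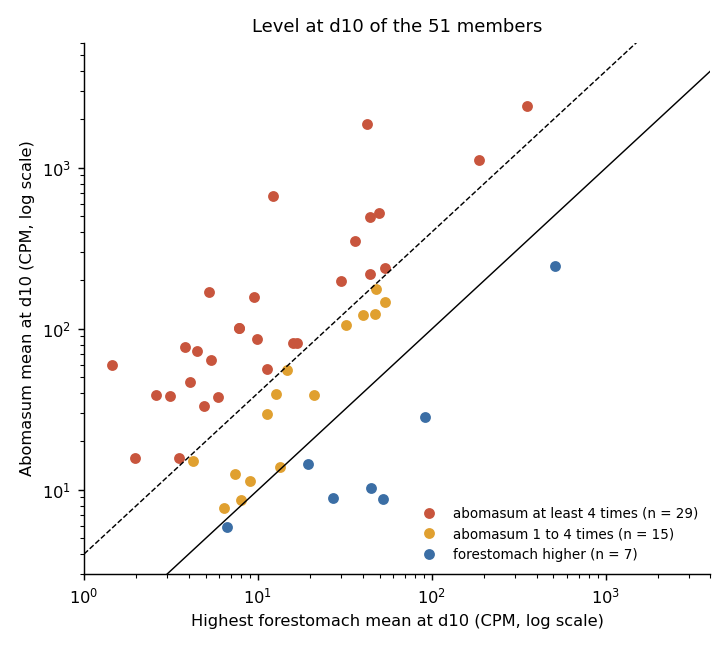
Mean CPM at d10 in the abomasum (vertical axis, log scale) against the highest mean of the rumen, reticulum and omasum at d10 (horizontal axis, log scale), 1 point for each member and 3 libraries for each mean. The solid line marks equal levels and the dashed line an abomasum level 4 times higher; 29 members lie on or above the dashed line, 15 between the lines and 7 below equality.

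In the rumen, whose libraries the rule did not use, 14 of the 51 members rose from d5 to d10 and 0 fell (edgeR over 14536 genes, adjusted p under 0.05). Over all genes tested, 5.19% rose and 9.84% changed in either direction. By DESeq2 16 members rose and 1 fell, where 8.73% of all genes rose, and in the fit of all 24 libraries 13 rose, where 1.31% did. The 14 members were 27.5% of the list. Their log2 fold changes ran from 0.96 to 10.20, with standard errors of 0.15 to 0.68 and adjusted p-values (edgeR) of 0.000319 to 0.0261. The d5 and d10 libraries overlapped for none of the 14. As the 14 were called on these same libraries, this describes the calls and adds no support. Over all genes with a mean of at least 1 CPM in the rumen, 30.6% had the d10 libraries all above those of d5. The fitted log2 fold change over all 51 members had a median of 1.02 and quartiles of 0.33 and 1.87, against a median of 0.01 and quartiles of -0.27 and 0.28 over all genes. It was above 0 for 44 members and for 50.8% of all genes.

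Member 10 had 0 counts in rumen libraries 1 and 2 of d5 and 1 count (0.0667 CPM) in library 3, and then 39.0, 33.6 and 48.7 CPM at d10. With 1 count at d5 against 1988 at d10, the ratio of the pooled CPM was 1750, with an exact 95% interval of 314 to 69141 that covers counting error only (adjusted p = 0.000319 by edgeR). Member 3 had 0.26, 0.0767 and 0.467 CPM at d5 and 46.3, 44.6 and 71.3 CPM at d10, with a log2 fold change of 7.41 ± 0.40 (SE, edgeR, adjusted p = 0.000971). Member 25 had 0.325, 0.307 and 0.133 CPM at d5 and 7.41, 7.15 and 7.54 CPM at d10. These were the 3 members under 1 CPM in each d5 rumen library and at 5 CPM or more in each d10 rumen library. In the abomasum these members were already present at d5, member 25 being the lowest with 0.853, 1.20 and 1.70 CPM.

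Other members rose in the rumen from a higher level. Member 15, the most abundant in the abomasum, had 90.2, 93.7 and 134 CPM in the rumen at d5 and 368, 361 and 330 CPM at d10, with a log2 fold change of 1.57 ± 0.16 (SE, edgeR, adjusted p = 0.00584). Member 18 had 8.06, 6.75 and 10.2 CPM at d5 and 31.7, 35.5 and 29.1 CPM at d10. Its libraries were close within each age and far apart between the ages. Member 51 had 0.52, 1.46 and 0.20 CPM at d5 and 25.9, 15.8 and 16.9 CPM at d10. Member 45, with 17.4, 21.2 and 23.0 CPM at d5 and 48.1, 46.3 and 40.1 CPM at d10, had the smallest change of the 14, a log2 fold change of 0.96 ± 0.15 (SE, edgeR, adjusted p = 0.0154).

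The other 37 members did not pass the test in the rumen. Their median log2 fold change was 0.65, and it was above 0 for 30. Member 1 was among them, with 15.9, 15.7 and 30.2 CPM at d5 and 49.5, 80.8 and 17.0 CPM at d10. Its groups overlapped because library 3 was the highest at d5 and the lowest at d10. Member 11 was similar, with 1.49, 4.60 and 35.0 CPM at d5 and 39.0, 67.3 and 21.5 CPM at d10. Over the 50 members with a mean of at least 1 CPM in the rumen, the d10 libraries were all above those of d5 for 21 and all below for 1, where this held for 30.6% and 8.93% of all such genes. Many genes of the rumen, and not only members, thus had separate ages. The number of members that rose was 8 without rumen d5 library 1 and 8 without rumen d5 library 2, where genes called in either direction went from 1430 of 14536 to 187 of 14810 and 205 of 14876. Members 32, 45, 9, 24, 30 and 36 were the ones no longer called in either case. Their fitted log2 fold changes stayed close, for example 4.43 and 4.12 against 3.87 for member 24 and 1.84 and 1.93 against 2.05 for member 32. The median log2 fold change of the members was 0.67 without rumen d10 library 2.

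**Figure D3:**
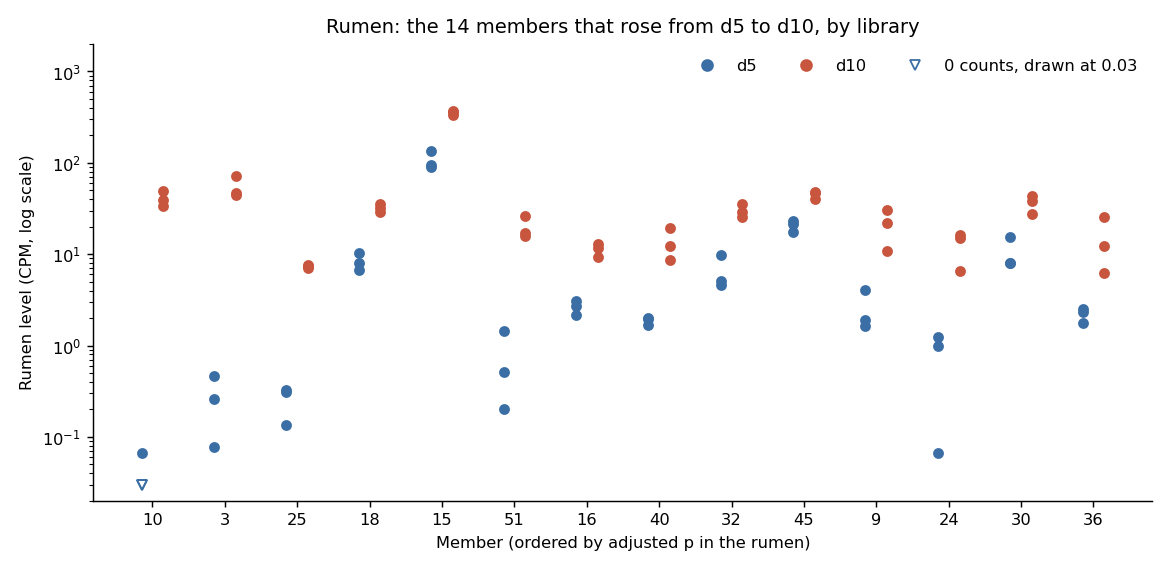
CPM in the rumen (vertical axis, log scale) of the 14 members that rose with age (horizontal axis, member numbers in order of adjusted p), each point 1 of the 3 libraries of d5 (blue) or d10 (red), with open triangles for 0 counts. Member 10 goes from 0 counts in both of the first d5 libraries to 33.6 to 48.7 CPM at d10, while member 45 goes from 17.4 to 23.0 CPM to 40.1 to 48.1 CPM.

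In the reticulum most members had a higher fitted level at d10, but no single gene passed the test. By edgeR 0 of the 14708 genes (0.0%), and so 0 of the 51 members, had an adjusted p under 0.05. The smallest adjusted p of a member was 0.211, for member 16. At an unadjusted p under 0.05 there were 24 members, 22 of them higher and 2 lower at d10, where 7.42% of all genes reached that p. By DESeq2 10 members rose, where 0.687% of all genes rose, in the fit of all 24 libraries 1 did, where 0.0617% of all genes did, and by limma-voom 0 did. The median log2 fold change of the members was 1.02 with quartiles of 0.51 and 1.79, against a median of 0.01 over all genes. It was above 0 for 45 members and for 51.4% of all genes.

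Groups did not overlap and were higher at d10 in the reticulum for 23 of the 50 members with a mean of at least 1 CPM, and 6.23% of all such genes did the same. They were lower at d10 for 1 member and for 5.21% of all such genes. Member 16 had 1.91, 1.46 and 1.34 CPM in the reticulum at d5 and 7.11, 6.90 and 7.86 CPM at d10. Member 24 had 1.06, 1.17 and 0.283 CPM at d5 and 3.70, 8.98 and 14.1 CPM at d10. All 14 members that rose in the rumen had a fitted log2 fold change above 0 in the reticulum, with a median of 1.99, and 12 of them had an unadjusted p under 0.05 there. The 37 others had a median of 0.81 in the reticulum. Libraries of the same number in rumen and reticulum may come from one lamb, in which case both chambers are not independent of each other.

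In the omasum no member passed the test. By edgeR 0 of 15130 genes (0.0%), and so 0 of the 50 members that could be tested, had an adjusted p under 0.05. At an unadjusted p under 0.05 there were 1111 genes (7.34%), 5 of them members. By DESeq2 155 genes differed, 0 of them members, and 0.37% of all genes rose. In the fit of all 24 libraries 0.0679% of all genes rose, 0 of them members, and by limma-voom 0 genes differed. The median log2 fold change of the members was 0.13, and it was above 0 for 29 of the 50 members and for 49.7% of all genes. Without omasum d5 library 2 alone, the median was 0.29 and 40 of 50 members were above 0. Without omasum d5 library 1 alone, it was 0.0077 and 26 of 51 were. As single omasum libraries were left out, the median ran from 0.0054 to 0.298, so that the near-even split depends on the libraries used. Groups did not overlap and were higher at d10 for 13 of the 50 members with a mean of at least 1 CPM, where this held for 14.6% of all such genes. They were lower at d10 for 0 members and for 3.6% of all such genes.

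Without omasum d5 libraries 1 and 2, which held abomasal transcripts, the median log2 fold change of the members was 0.26. With 1 omasum library left at d5, 0 of 15896 genes were called, so that the 0 members called say nothing about them. Member 24 had the largest fitted change, with 0.916, 1.86 and 0.187 CPM at d5 and 6.45, 6.93 and 9.98 CPM at d10. Member 10 followed, with 1.32, 0.745 and 0.623 CPM at d5 and 6.22, 4.25 and 2.05 CPM at d10. Both had the d10 libraries above all d5 libraries, and both rose in the rumen. The rise of members 3 and 10 was larger in the rumen than in the omasum by a test of the difference over all 24 libraries, which 0.296% of all genes passed. These calls depended on single libraries. Of 13 alternatives with libraries left out, member 3 passed in 3 and member 10 in 1. Without omasum d5 libraries 1 and 2, which leaves 1 omasum library at d5, the differences were 6.29 and 7.46 on the log2 scale against 6.72 and 8.09, and 0 genes passed (adjusted p = 0.271 and 0.549 by edgeR). The fit takes all libraries as independent, which the labels do not settle.

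**Figure D4:**
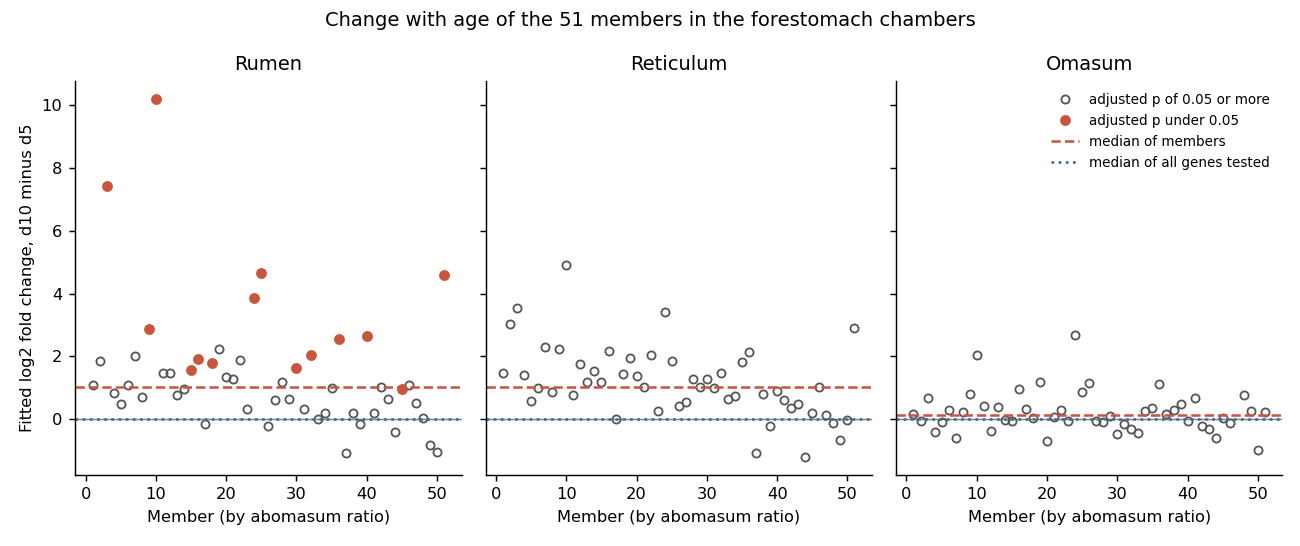
Fitted log2 fold change from d5 to d10 (vertical axis) of each member (horizontal axis) in the rumen, reticulum and omasum, 3 libraries for each age. Filled points passed an adjusted p of 0.05, the dashed line is the median of the members (1.02, 1.02 and 0.13) and the dotted line that of all genes tested.

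Omasum d5 library 2 was not used by the rule and held abomasal transcripts. Why it held them was not tested. Its index of 27 abomasal genes was at 74.4% of the d5 abomasum level, and the 39 forestomach genes were at 3.84% of their rumen level, against 64.4% and 77.6% in omasum d5 libraries 1 and 3. The 51 members together took 818 CPM in it. This was below each d5 abomasum library and far below each d10 abomasum library. The sums of omasum d5 libraries 1 and 3, at 963 and 1124 CPM, were also below each d5 abomasum library. The sum therefore does not tell the tissues apart. The 29 members at least 4 times higher in the abomasum at d10 had a median of 67.9% of their d5 abomasum level in library 2. Against their d10 abomasum level the median was 7.70%. The same members had 51.9% and 6.60% in omasum d5 library 3, which held almost no abomasal transcripts, so that their level alone does not tell the tissues apart. Of the 7 members higher in the forestomach, members 17, 26, 44, 45, 48 and 49 were lower in library 2 than in libraries 1 and 3. The differences ran from member 17, at 31.4 against 261 and 303 CPM, to member 48, at 4.02 against 8.75 and 7.10 CPM. Member 51 went the other way and was highest in library 2, at 6.63 CPM against 0.685 CPM in library 3.

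Member 49 was a member with a lower fitted level at d10 in the rumen, with 76.5, 89.4 and 79.1 CPM in the rumen at d5 and 35.0, 63.2 and 56.3 CPM at d10, a log2 fold change of -0.83 ± 0.22 that did not pass the test (SE, edgeR, adjusted p = 0.0524). It was also lower in the reticulum, by the fit, with an unadjusted p under 0.05. In the abomasum it had 1.14, 2.66 and 0.234 CPM at d5 and 6.57, 13.9 and 5.72 CPM at d10.

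The same rule was met by 132 genes in the rumen (1.22% of genes at 5 CPM or more in each d10 library), 33 in the reticulum (0.323%) and 17 in the omasum (0.153%). Of the 51 members, 12 met it in the rumen, 5 in the reticulum and 1 in the omasum. These shared genes were 23.5%, 9.80% and 1.96% of the members, and 9.09%, 15.2% and 5.88% of the list of the other chamber. In the opposite direction 0 members met the rule, where 0.399%, 0.109% and 0.128% of the genes at 5 CPM or more in each d5 library did in the rumen, reticulum and omasum. Summed over the 51 members, the level went from 1007 to 1345 CPM at d5 to 1769 to 2356 CPM at d10 in the rumen, from 825 to 1081 to between 1491 and 1706 CPM in the reticulum, and from 818 to 1124 to between 1155 and 1368 CPM in the omasum. The ages did not overlap in any forestomach chamber by this sum, in which the most abundant members weigh most. In the abomasum the rule fixes this. In the omasum the highest d5 sum was 1124 CPM and the lowest d10 sum 1155 CPM. There, d5 libraries 1 and 2 held abomasal transcripts. Among genes with a mean of at least 1 CPM, 30.6% (rumen), 6.23% (reticulum) and 14.6% (omasum) were separate in this direction.

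**Figure D5:**
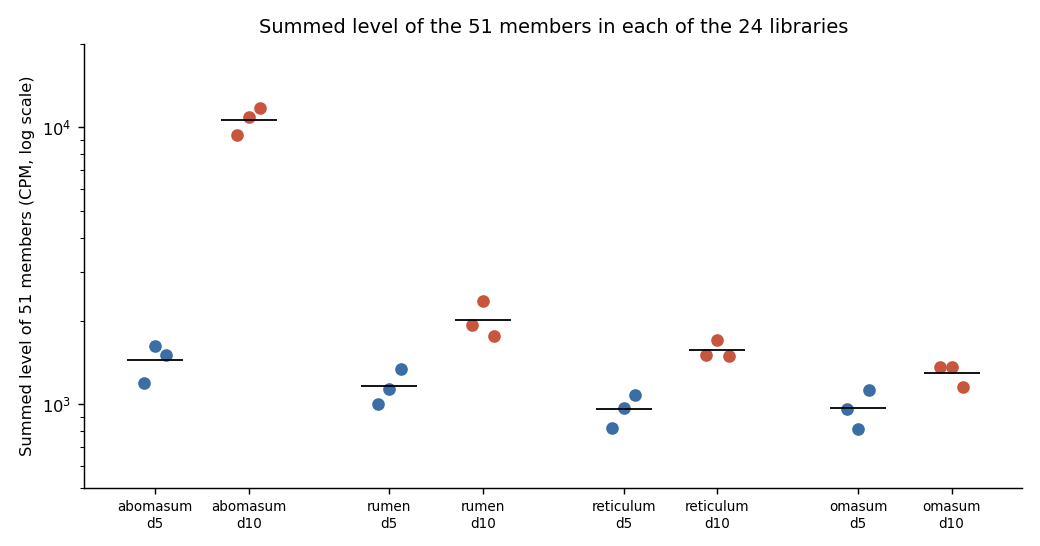
Summed CPM of the 51 members (vertical axis, log scale) in each of the 24 libraries by chamber and age, with a bar at the mean of the 3 libraries. The abomasum goes from 1199 to 1627 CPM at d5 to 9385 to 11709 CPM at d10, and each forestomach chamber stays at or under 2356 CPM.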

How the data were processed

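RNA sequencing counts of 24 libraries were analysed, 3 for each of the 4 chambers at d5 and at d10, with chamber, age and number taken from the labels. What the authors deposited is a single table of unnormalized read counts by gene. CASAVA 1.8 and TopHat2 2.0.13 appear in the submitters' processing notes. How reads were counted, on which genome and annotation and whether by strand, is not stated there. Genes that share reads with a near copy, or overlapping and antisense genes, can therefore not be told apart. Of 27054 identifiers (0 duplicates), 0 matched the RefSeq table (35057 genes), so that gene lists set by symbol were not used. By the rule for named genes, the 2 members with the largest ratio are then given by identifier and the others by count and range. The numbered members given with their values go beyond that rule and were picked after their values were seen.

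CPM was computed over the column total, of 13041697 to 19650121 counts, at which 1 count is 0.0509 to 0.0767 CPM. Intervals cover counting error only. Each chamber's 6 libraries were fitted for age in R 4.3.3 by edgeR 4.0.16, with TMM factors, the filterByExpr filter and a two-sided quasi-likelihood test, with Benjamini-Hochberg adjustment over all genes tested and a threshold of 0.05. The standard error is the log2 fold change divided by the root of F. Tested on simulated data with 200 changed genes of at least 50 counts on average, this recovered 98% of 4-fold and 62% of 2-fold changes for the rumen comparison, 69% and 1% for the reticulum, 52% and 4% for the omasum, 11% and 0% for the abomasum. Alternatives were DESeq2 1.42.0 and its size factors, limma-voom (limma 3.58.1), other filters, a fit of all 24 libraries, single libraries left out and the number as a block. Differences in age effect from chamber to chamber came from the fit of all 24 libraries, a choice made after seeing the data. The members and lists were chosen with earlier results of these data known, and the split by chamber level and the 39 forestomach genes were chosen after the values were seen. Libraries of a group differed beyond counting noise (chi-square over degrees of freedom at least 20.2), so none was taken as deposited more than once. This does not show that they come from separate lambs.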

Additional observations from a re-analysis of the deposited data

Results flagged for a closer look

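The change from d5 to d10 was larger in the rumen than in the omasum for members 3 and 10, by 6.72 ± 1.17 and 8.09 ± 1.66 on the log2 scale (SE, edgeR interaction test over the 16195 genes of all 24 libraries, adjusted p = 0.0291 and 0.0439). Over all genes 0.296% differed between these chambers by that test. Member 3 had 5.04, 2.46 and 2.68 CPM in the omasum at d5 and 6.39, 5.70 and 6.29 CPM at d10, and member 10 had 1 count in the d5 rumen, so that the size of its fitted difference depends on the prior count. Without omasum d5 libraries 1 and 2 the differences were 6.29 and 7.46 (adjusted p = 0.271 and 0.549 by edgeR), with 1 omasum library left at d5 and 0 genes called in all. With single rumen or omasum libraries left out, the difference ran from 6.33 to 7.34 for member 3 and from 7.59 to 9.94 for member 10, with an adjusted p (edgeR) of 0.0085 to 0.111 and of 0.0212 to 0.164. Over all 13 alternatives with libraries left out, member 3 passed in 3 and member 10 in 1. No gene of 16195, and so no member, passed the edgeR test between rumen and reticulum or between reticulum and omasum. At an unadjusted p under 0.05 (edgeR) there were 4 members among 371 genes for rumen minus reticulum. For reticulum minus omasum there were 13 members among 1098 genes. The median difference of the 51 members was 0.04 and 0.96 on the log2 scale, and it was above 0 for 26 and 43. Other tools were not run for these differences. The fit takes the 24 libraries as independent. Whether libraries of one number share a lamb is not given, and no fit allowed for it.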

How the results depend on the processing

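Of the 73 alternatives for the number of members, their calls and their median change, 60 lay within 1.5 times of the reported count or within the spread between libraries. These 60 include 14 counts of 0 members called in the omasum and 11 in the reticulum, where most settings called few or no genes. The number of genes meeting the rule was 77 at a minimum of 1 CPM, 113 at 1.5 times and 28 at 3 times, and 56 to 152 when single abomasum libraries were left out, which relaxes the rule by construction. Members called in the rumen numbered 9 of the 37 tested with at least 10 counts in every library (1086 of 13267 genes called), and 8 to 17 as single libraries were left out (187 to 1685 genes called). Of the 14 members, 8 (members 10, 3, 25, 18, 15, 51, 16 and 40) passed in every alternative in which they were tested. The others were not called without rumen d5 library 1 or without library 2, and some elsewhere. Without library 1 their log2 fold changes were 1.84 (member 32), 0.84 (45), 2.64 (9), 4.43 (24), 1.45 (30) and 2.65 (36), against 2.05, 0.96, 2.89, 3.87, 1.62 and 2.55, and the cause was not tested. The median log2 fold change of the members in the rumen was 0.67 to 1.31 as single libraries were left out. In the reticulum DESeq2 called 10 members and the fit of all 24 libraries 1. Same-numbered libraries of d5 and d10 deviated together (r over 0.1) in 4 of 12 pairs, so that the numbers were not taken to pair the ages. With the replicate number as a block, 15 members were called in the rumen (14 higher, 1 lower), where 1242 of 14536 genes were. In either of the other forestomach chambers 0 members were called. Over all genes 6 of 14708 were called in the reticulum and 0 of 15130 in the omasum, so that these 0 members say little about the members. In the omasum 0 members were called in all 14 alternatives. Only DESeq2 (155 of 15130 genes) and the fit of all 24 libraries (165 of 16195) called any gene there. The 0 members of the other settings therefore say nothing about the members. By DESeq2 and by the fit of all 24 libraries, 0.37% and 0.0679% of all genes rose. The 0 members called by these say little as well. At these depths and with 3 libraries a group, 2-fold changes in the reticulum, omasum and abomasum were mostly beyond the test, as the simulated data showed.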

Other observations

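The order of the 3 libraries within an age was shared between rumen and reticulum for many members. At d10, library 3 was the lowest in both chambers for 26 of the 50 members with a mean of at least 1 CPM in both (52.0%), and for 18.0% of all such genes. At d5, library 3 was the highest in both for 15 of 40 members (37.5%) and for 13.6% of all genes, and library 1 was the lowest in both for 14 of 40 (35.0%) and for 16.2% of all genes. Member 19 showed this in every chamber at d5. It had 7.89, 130 and 296 CPM in abomasum libraries 1, 2 and 3, 0.52, 27.0 and 78.4 CPM in the rumen, 0.424, 39.9 and 68.4 CPM in the reticulum and 9.01, 54.7 and 77.7 CPM in the omasum. At d10 it had 1053 to 1214 CPM in the abomasum and 84.3 to 222 CPM in the forestomach chambers. Member 11 had 1.49, 4.60 and 35.0 CPM in the rumen and 5.65, 9.26 and 37.4 CPM in the reticulum at d5. Whether the libraries of one number come from one lamb is not given in the sources used here.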
